A study of Mus musculus with 20 samples.

Results

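Amacrine and horizontal cells are inhibitory interneurons of the retina, and 10 genes used to recognise them were followed here between retina and cortex. They were Slc32a1, Slc6a9, Slc18a3 and Th, which serve inhibitory, cholinergic and dopaminergic transmission, the calcium-binding protein genes Pvalb and Calb2, and the transcription factor genes Prox1, Tfap2b, Tfap2a and Lhx1. They were chosen by name, with earlier results of these data known, as the probes to which the platform annotation gave one of these symbols. Each of the 10 genes had 1 probe, and all 10 passed the filter on missing values, out of 9084 named genes with a tested probe. Total RNA was measured on 20 CodeLink arrays, a platform of GE Healthcare (Amersham) that reads 1 biotin-labelled sample per array. The retina RNA came from a pool of adult C57/B6 mice, and the cortex RNA from a pool of Swiss-Webster mice at postnatal day 1. No treatment or engineered allele is named for either pool. Both pools were hybridised to 5 arrays apiece at one site, called the first here, and to a further 5 apiece at site 2. The pools differ in tissue, strain and age, so these cannot be told apart. All arrays of a tissue are technical replicates of 1 pool, so every p-value below measures the spread between arrays and not between animals.

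Amacrine cells modulate the signals that bipolar cells pass to ganglion cells in the inner retina, and horizontal cells do the same at the photoreceptor synapse. Most amacrine cells release GABA or glycine, and small subclasses also release acetylcholine or dopamine. In the mouse retina calretinin, the product of Calb2, marks amacrine and ganglion cells, parvalbumin marks ganglion cells and some amacrine cells, Prox1 marks horizontal and AII amacrine cells, and Lhx1 marks horizontal cells. None of the 10 genes is restricted to the retina, because the cortex has GABAergic interneurons and other brain cells that use many of them.

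The labels of both tissues were checked against marker lists, as summed intensities over the measured markers. Rod markers, with 3 of 5 measured (Gnat1, Sag and Pde6b), summed to 220 to 300 in retina against 1.63 to 8.48 in cortex at the first site, and to 341 to 369 in retina against 0.442 to 3.01 in cortex at site 2. Markers of cortical projection neurons, with 4 of 6 measured (Neurod6, Neurod2, Tbr1 and Emx1), summed to 1.03 to 1.32 in retina against 31.4 to 34.9 in cortex at the first site, and to 1.38 to 1.64 in retina against 31.9 to 38.0 in cortex at site 2. The intensities have no unit, and 1 is close to the median probe of an array. One array stood apart before any comparison was made. On cortex replicate 5 at site 2, 907 probes, or 8.83%, lay at least 2-fold from the median of the other 4 arrays of its group, 683 of them higher and 224 lower. The share was 1.28% to 4.2% on the other 19 arrays. Pvalb, Slc6a9 and Th were among the probes that departed on that array, and their site 2 results are given with and without it. The other 7 genes each had their lowest value of the group there, and site 2 differences of all 10 without it are drawn in the plot of differences.

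The first comparison asks how the genes differed between retina and cortex at each site. Of the 10 genes, 7 were called higher in retina at both sites: Pvalb, Calb2, Slc18a3, Slc6a9, Slc32a1, Prox1 and Tfap2b. A gene was called when limma gave an adjusted p below 0.05 (Benjamini-Hochberg over 10339 probes) and the difference was at least 2-fold. Over all probes, 11.9% were called higher at the first site and 11.1% at site 2. The 10 genes were picked with earlier results of these data known, so setting them beside all probes describes them and tests nothing. None of the 10 was called lower at either site, where 13% and 13.5% of all probes were. At an unadjusted p below 0.05 limma gave 8 genes higher and 0 lower at the first site, and 8 higher and 1 lower at site 2. The share of all probes at that looser threshold is not given here. Counts at it, here and below, therefore describe the genes alone and set them apart from nothing. The median log2 difference of the 10 genes was 1.90 at the first site and 1.55 at site 2, against -0.04 and -0.05 over all probes. In 8 genes every retina array lay above every cortex array at the first site, as did 26.2% of all probes, and in 6 at site 2, as did 24% of all probes. Without cortex replicate 5 of site 2, 8 genes had every retina array above every cortex array there, 1 had every retina array below, as did 24.3% of all probes with all arrays, and 1 overlapped. At the first site 0 genes had every retina array below, as did 27.1% of all probes. In bulk RNA, more cells of a type and more RNA per cell cannot be told apart.

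**Figure D1:**
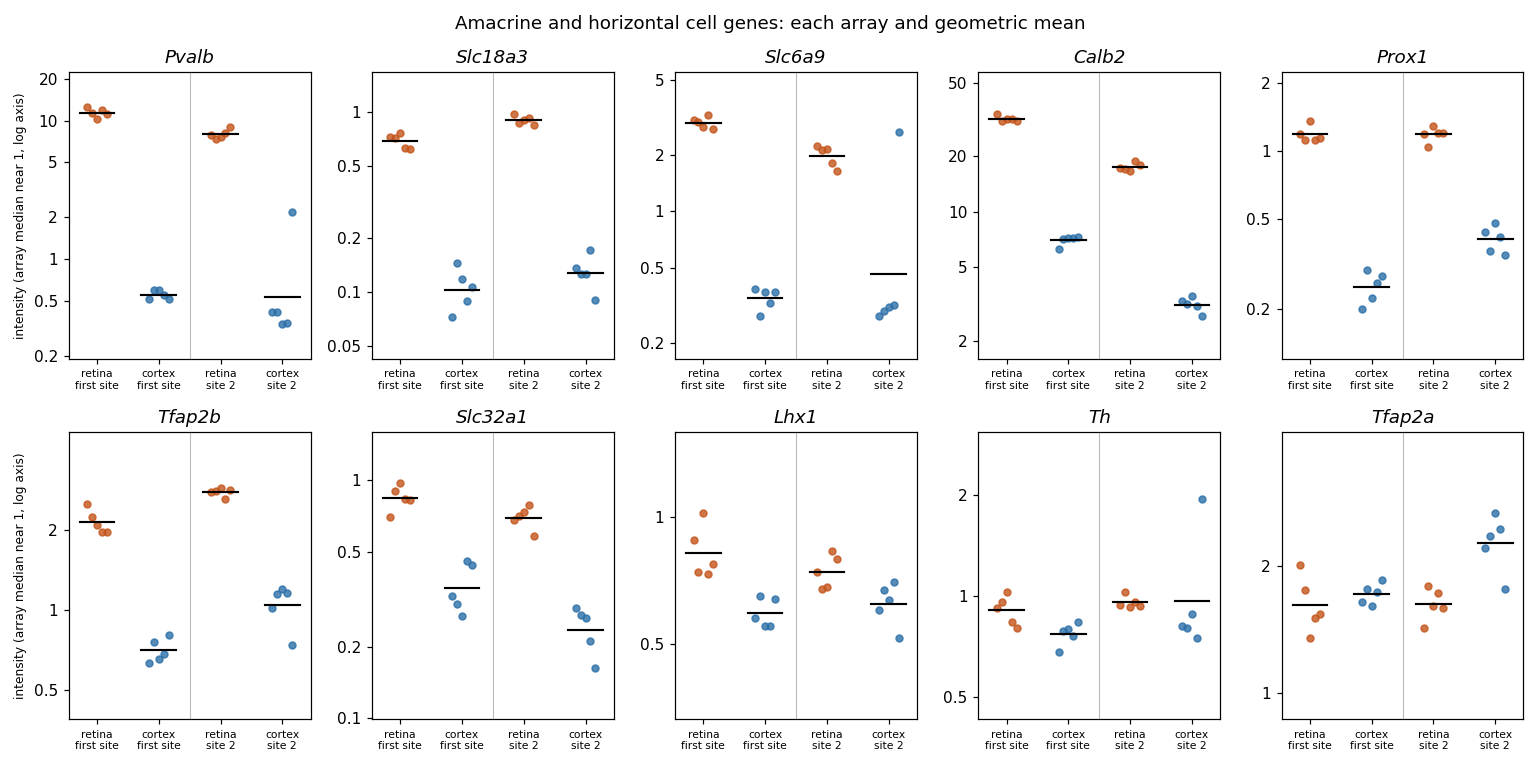
Intensity of the 10 amacrine and horizontal cell genes on each of the 20 arrays, on a log axis, with retina left of cortex at each site. Points are arrays and the short lines are geometric means; a single high cortex array at site 2 stands out for Pvalb (2.19), Slc6a9 (2.66) and Th (1.94).

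Slc32a1 encodes the vesicular transporter that loads GABA and glycine into synaptic vesicles, and it was higher in retina at both sites. At the first site its intensity was 0.701, 0.898, 0.968, 0.833 and 0.828 on the retina arrays, against 0.327, 0.302, 0.27, 0.456 and 0.438 on the cortex arrays. At site 2 it was 0.678, 0.706, 0.736, 0.785 and 0.582 in retina, against 0.291, 0.271, 0.264, 0.212 and 0.163 in cortex. No retina array overlapped the cortex arrays at either site. The log2 difference was 1.26 (SE 0.16, n = 5 arrays each, limma adjusted p = 1.6e-06) at the first site, or 2.39-fold, and 1.56 (SE 0.16, adjusted p = 9.2e-08) at site 2, or 2.95-fold. The cortex also holds cells that use this transporter. Markers of cortical interneurons, with 6 of 7 measured and 5 called lower in retina at each site (Lhx6, Dlx1, Dlx2, Sst and Npy), summed to 5.12 to 5.37 in retina against 31.4 to 35.3 in cortex at the first site, the cortex range being over 4 arrays with all values. At site 2 the sums were 4.4 to 4.71 in retina and 26.4 to 31.7 in cortex. The part of these cells in the Slc32a1 difference was not tested.

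Slc6a9 encodes GlyT1, the plasma membrane glycine transporter that glycinergic amacrine cells carry in the retina and glia carry in much of the brain. On the first-site arrays it read 3.06, 3, 2.83, 3.27 and 2.76 in retina, against 0.385, 0.278, 0.374, 0.325 and 0.372 in cortex. On the site 2 arrays it read 2.23, 2.12, 2.15, 1.81 and 1.64 in retina, against 0.278, 0.294, 0.308, 0.318 and 2.66 in cortex. The groups were separate at the first site, and at site 2 cortex replicate 5 lay above every retina array while the other 4 cortex arrays lay below. By limma the log2 difference was 3.11 (SE 0.43, adjusted p = 3.5e-06), or 8.66-fold, at the first site and 2.09 (SE 0.43, adjusted p = 0.00031), or 4.27-fold, at site 2. The site 2 difference was 2.72 (SE 0.1), or 6.6-fold, without cortex replicate 5. Müller glia, the radial glia of the retina, were also represented, with 5 of 5 listed markers measured. Of these, 4 had a higher call in retina at each site (Glul, Rlbp1, Dkk3 and Aqp4). Slc1a3 was not called, at -0.3 and 0.06 on the log2 scale. The 5 summed to 121.0 to 144.0 in retina against 40.8 to 47.1 in cortex at the first site. At site 2 they summed to 112.0 to 124.0 in retina against 29.0 to 37.6 in cortex. Glul made up most of these sums, averaging 109 and 95.6 in retina at the 2 sites. The part of Müller glia in the Slc6a9 difference was not tested.

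Other genes of GABA and glycine transmission did not share one direction. Among 4 measured of 10 listed genes for synthesis, transport and anchoring, Gad1, which encodes a GABA-synthesising enzyme, was called higher in retina at both sites, by 1.36 and 1.57 on the log2 scale. Gad2, its paralog, differed by -0.14 (adjusted p = 0.22) at the first site and was called lower at site 2, by -1.11. Abat and Glrb, an enzyme of GABA breakdown and a glycine receptor subunit, had the smallest differences and were not called. The list median was 0.18 at the first site and 0.04 at site 2. Among 10 measured of 22 listed receptor genes, 1 was called higher and 4 lower at each site, with medians of -0.36 and -0.86. The higher one was Gabrr1, the rho subunit typical of retinal bipolar cells, at 12.5-fold and 5.62-fold. The lower ones were Gabrb1, Gabrg1, Gabra2 and Gabbr1, the first with log2 differences of -1.72 and -2.04 at the 2 sites. Quantile normalization left 2 of the receptor genes called lower at the first site, and so did leaving out cortex replicate 1 of that site, which brought Gabbr1 to -0.88. Gabra2 lay at the 2-fold limit there and lost its call without any of 5 of the arrays.

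Slc18a3 encodes the vesicular acetylcholine transporter, carried in the retina by starburst amacrine cells. The first-site arrays gave 0.721, 0.719, 0.768, 0.63 and 0.624 in retina, against 0.0727, 0.144, 0.118, 0.0889 and 0.107 in cortex. The site 2 arrays gave 0.977, 0.863, 0.898, 0.925 and 0.85 in retina, against 0.136, 0.126, 0.126, 0.171 and 0.0908 in cortex. Both sites showed complete separation, with every cortex value below 0.195, the 25th percentile of all positive intensities. The log2 difference by limma was 2.74 (SE 0.16, adjusted p = 1.9e-11), or 6.68-fold, and 2.82 (SE 0.16, adjusted p = 1.3e-11), or 7.08-fold, at the first site and site 2. With intensities raised to at least that percentile the differences were 1.82 and 2.21, so the size depends on how dim cortex values are read. Slc18a3 lies within the record of Chat, the acetylcholine-synthesising enzyme, and Chat was not analysed here. Of 10 measured among 18 listed acetylcholine genes, 1 was called higher at each site and 0 lower. At an unadjusted p below 0.05 limma gave 2 higher and 0 lower at the first site, and 2 higher and 2 lower at site 2. The called gene was Chrna6, a nicotinic receptor subunit, by 1.12 and 1.35 on the log2 scale. The list medians were 0.04 and -0.33, and Chrna4 and Chrna7, other nicotinic subunits, had the smallest differences. Both averaged below the 25th percentile in both tissues at both sites. Chrm1, a muscarinic receptor picked out after its values were seen, was at -1.30 (adjusted p = 0.13) at the first site and -1.70 (adjusted p = 0.051) at site 2. Leaving out retina replicate 3 of site 2 made it called lower at both sites, at -1.30 (adjusted p = 0.029) and -2.53 (adjusted p = 0.00037). At site 2 it was also called lower without cortex replicate 2 (-1.91) or 3 (-1.92). Chrm1 was dim, with retina means of 0.0603 (first site) and 0.136 (site 2) and cortex means of 0.149 and 0.443. All but the last lay below the 25th percentile. Its site 2 arrays also spread widely, with SDs of 1.86 (retina) and 1.48 (cortex) in log2 intensity. These calls can therefore not be read safely as a decrease.

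Th encodes tyrosine hydroxylase, the rate-limiting enzyme of dopamine synthesis, which in the retina marks dopaminergic amacrine cells. Its intensity at the first site was 0.92, 0.962, 1.03, 0.839 and 0.803 in retina, against 0.682, 0.788, 0.796, 0.759 and 0.835 in cortex. At site 2 it was 0.939, 1.03, 0.927, 0.959 and 0.937 in retina, against 0.816, 0.802, 0.887, 0.75 and 1.94 in cortex. Retina and cortex overlapped at both sites, at the first through the lowest retina array and at site 2 through cortex replicate 5. The log2 difference was 0.24 (95% interval -0.15 to 0.62, limma adjusted p = 0.29) at the first site and -0.01 (-0.40 to 0.37, adjusted p = 0.96) at site 2. When cortex replicate 5 was left out it was 0.24 (SE 0.08, adjusted p = 0.013) at site 2, and the first-site adjusted p became 0.0089, both below the 2-fold limit. The promoter of Th, at chr7:142899946-142900245 on the minus strand (RefSeq, GRCm38.p6, 250 bases before to 50 after the start), is shown because this gene was not called while other members with a role in transmission were. The capitals mark a cyclic AMP response element, TGACGTCA, at position -45 and a GC box, GGGCGG, at -220.
Th: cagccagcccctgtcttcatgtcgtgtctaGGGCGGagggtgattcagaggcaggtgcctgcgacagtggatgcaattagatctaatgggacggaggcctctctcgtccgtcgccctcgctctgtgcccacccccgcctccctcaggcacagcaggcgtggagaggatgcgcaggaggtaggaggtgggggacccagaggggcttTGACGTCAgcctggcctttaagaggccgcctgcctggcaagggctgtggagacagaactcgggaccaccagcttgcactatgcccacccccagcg
The letters TGACGTCA were found on either strand in 1.79% of 32851 promoter windows of this length, and GGGCGG in 35.7%. These matches are descriptions of the sequence and say nothing of binding in these tissues.

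Other dopamine genes were called in both directions. Of 8 measured among 16 listed genes, 2 were called higher at each site, with 1 called lower at the first site. At site 2 another 1 joined it, which made 2, and the medians were 0.69 and 0.21. Drd4, a dopamine receptor of photoreceptors, was higher in retina by 15.3-fold and 8.01-fold, and Drd2, the autoreceptor of dopamine neurons, 5.55-fold and 6.92-fold higher. Ddc, which converts L-DOPA to dopamine, was lower in retina by 4.33-fold and 5.37-fold. Its retina means of 0.122 and 0.0569 lay below the 25th percentile of intensities, and with a floor there it was 2.7-fold lower at the first site and 1.57-fold lower, not called, at site 2. Slc6a3, the dopamine transporter, differed by -0.89 at the first site, short of the 2-fold limit, and was called lower at site 2 (-1.19). Leaving out cortex replicate 5 of site 2 brought Slc6a3 to -0.94 there, so that 1 gene was called lower. Averaged in size over the sites, the smallest differences were those of Pcbd1 (0.56 and 0.62) and Drd3 (0.83 and -0.21). Drd3 averaged below the 25th percentile in both tissues at both sites. Markers of midbrain dopamine neurons, with 5 of 6 measured, summed to 3.49 to 4.15 in retina against 6.83 to 7.64 in cortex at the first site, and to 2.7 to 3.25 in retina against 6.04 to 6.51 in cortex at site 2, the last over 4 arrays. Of these markers 0 were called higher at either site, also at an unadjusted p below 0.05 by limma, while 3 were called lower at the first site (Ddc, Nr4a2 and En1) and 4 at site 2 (Slc6a3, Ddc, Nr4a2 and Pitx3). Hypothalamic markers, with 3 of 5 measured, were all 3 called lower in retina (Avp, Hcrt and Pmch), with sums of 0.143 to 0.182 in retina against 3.94 to 4.72 in cortex at the first site, and 0.129 to 0.218 in retina against 2.62 to 4.27 in cortex at site 2. What these cells contribute to the cortex level of Th was not tested.

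Pvalb encodes parvalbumin, an EF-hand calcium buffer, and had the widest difference of the 10 genes. It read 12.6, 11.5, 10.4, 12 and 11.3 on the retina arrays of the first site, against 0.512, 0.597, 0.601, 0.548 and 0.518 on the cortex arrays. It read 7.85, 7.44, 7.6, 8.19 and 9.05 on the retina arrays of site 2, against 0.415, 0.413, 0.341, 0.343 and 2.19 on the cortex arrays. Every retina array was above every cortex array at both sites, and cortex replicate 5 of site 2 lay well above the other 4. The log2 difference by limma was 4.38 (SE 0.35, adjusted p = 1.6e-09), or 20.8-fold, at the first site and 3.9 (SE 0.35, adjusted p = 8.7e-09), or 15.0-fold, at site 2. Without that array the site 2 difference was 4.41 (SE 0.08), or 21.3-fold, and the first-site SE was 0.08. The first of 2 annotated promoters of Pvalb, at chr15:78206351-78206650 on the minus strand (RefSeq, GRCm38.p6), is shown for the gene with the widest difference. The capitals mark a match to GCCNNNGGC, the core that AP-2 factors bind, at position -81.
Pvalb: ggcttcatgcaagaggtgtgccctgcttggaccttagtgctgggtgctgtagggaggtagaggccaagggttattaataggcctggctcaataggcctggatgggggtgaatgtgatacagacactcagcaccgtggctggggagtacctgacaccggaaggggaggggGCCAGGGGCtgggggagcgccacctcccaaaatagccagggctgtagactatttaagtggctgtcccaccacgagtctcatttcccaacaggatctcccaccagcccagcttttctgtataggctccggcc
That core occurred on either strand in 16.6% of all windows.

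Parvalbumin is also abundant in fast skeletal muscle, and ganglion cells carry it in the retina. Skeletal muscle markers, with 6 of 7 measured, summed to 2.05 to 2.22 in retina against 1.28 to 1.44 in cortex at the first site, and to 1.59 to 1.89 in retina against 1.53 to 4.15 in cortex at site 2. Mylpf, a fast myosin light chain, was called higher in retina at both sites (2.43 and 2.01), Ckm at the first alone, and Acta1 was called lower at both (-1.54 and -1.29). Ganglion cell markers, with 5 of 7 measured, had 5 called higher at the first site (Sncg, Nefh, Thy1, Rbpms and Isl2) and 4 at site 2, all but Thy1. Their sum was 33.9 to 40.4 in retina against 1.74 to 3.17 in cortex at the first site, and 18.5 to 23.8 in retina against 1.78 to 3.21 in cortex at site 2. The part of either cell type in the differences of Pvalb and Calb2 was not tested.

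Calb2 encodes calretinin, and both tissues gave clear signal for it. At the first site the retina arrays read 33.8, 31.3, 31.8, 32.1 and 31.1, against 6.29, 7.15, 7.25, 7.2 and 7.31 on the cortex arrays. At site 2 the retina arrays read 17.4, 17.1, 16.7, 18.9 and 18, against 3.29, 3.16, 3.49, 3.09 and 2.72 on the cortex arrays. The tissues did not overlap at either site, and both tissues read lower at site 2. By limma the log2 difference was 2.19 (SE 0.07, adjusted p = 1.4e-15), or 4.55-fold, at the first site and 2.49 (SE 0.07, adjusted p = 2.1e-16), or 5.61-fold, at site 2. Cajal-Retzius cells of the young cortex also carry calretinin. Of their listed markers 2 of 4 were measured, Reln and Ebf2. At the first site the summed intensity was 14.6 to 18.0 for retina against 16.8 to 21.2 for cortex. At site 2 it was 12.4 to 15.2 for retina against 15.0 to 20.8 for cortex. Reln made up most of these sums, with first-site means of 15.4 (retina) and 17.7 (cortex), and site 2 means of 13.5 and 16.4. Ebf2 is also in the list of transcription factors below. The sums overlapped between the tissues, so they do not single out Cajal-Retzius cells. Of the 2 markers, 0 were called at either site, and at an unadjusted p below 0.05 limma gave 1 higher and 1 lower at each. The part of Cajal-Retzius cells in the cortex level of Calb2 was not tested.

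Among other EF-hand calcium-binding genes, 16 of 29 were measured and 7 had a higher call in retina at each site, with 1 called lower at the first site and 2 at site 2. The list medians were 0.28 and 0.34. The widest differences included photoreceptor proteins. Guca1a, a guanylate cyclase activator of photoreceptors, was higher in retina by 79.5-fold and 291-fold, and Rcvrn, recoverin, by 31.4-fold and 36.7-fold. Cabp2 and Cabp1, which modulate calcium channels, were 68.7-fold and 4.28-fold higher at the first site and 15.5-fold and 3.91-fold higher at site 2. Leaving out cortex replicate 5 of site 2 gave 550-fold for Guca1a and 29.5-fold for Cabp2 there. Both folds put the cortex mean below the 25th percentile of intensities, and no floor was applied to them. Guca1a spread widely in cortex at site 2, with an SD of 2.23 in log2 intensity over all arrays of the group. Cabp2 in cortex at the first site averaged 0.0755, below the 25th percentile of intensities. With a floor at that percentile Cabp2 was 26.6-fold higher in retina. Cabp1 in cortex at site 2 averaged 0.191, also below it, and the floor gave 3.55-fold. Calm3 and Kcnip3 had the smallest differences. Ncs1 was called lower at both sites (-1.17 and -1.52), and Calm2, a calmodulin gene with near-identical paralogs at the protein level, at site 2 (-1.14). Ncs1 was at -0.97 and not called at the first site when cortex replicate 1 was left out. With a floor at the 25th percentile or with quantile normalization, 0 genes of this list were called lower at the first site and 1 at site 2.

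**Figure D2:**
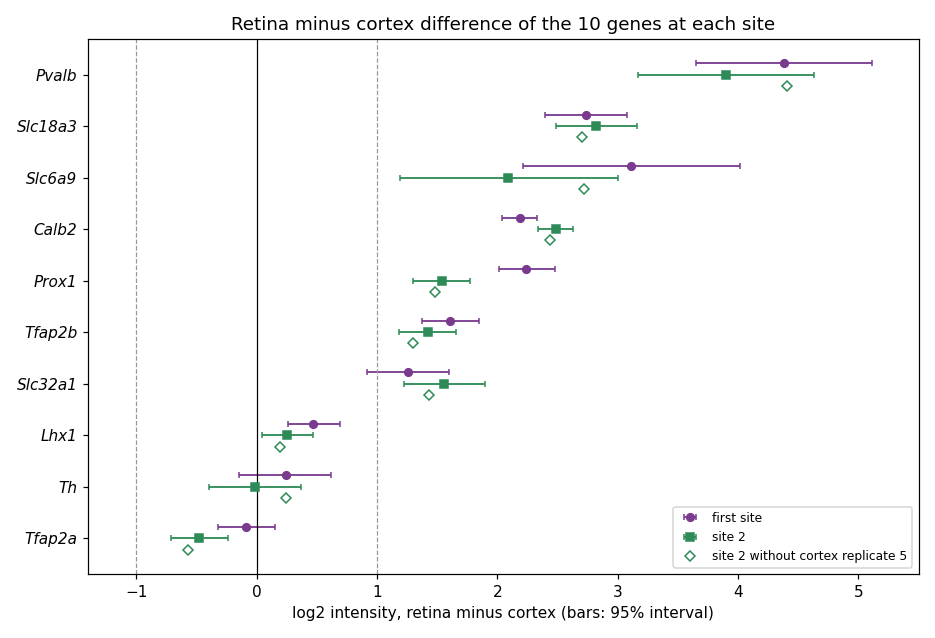
Log2 difference, retina minus cortex, of the 10 genes at both sites, with 95% intervals from the limma fit over all 20 arrays. Dashed lines are the 2-fold limits and open diamonds are site 2 without cortex replicate 5. That array widens the intervals of Pvalb, Slc6a9 and Th at both sites. Pvalb lies farthest to the right (4.38 and 3.90), while Lhx1, Th and Tfap2a lie within the limits at both sites.

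Prox1 encodes a homeodomain transcription factor needed for horizontal cells to form. At the first site it read 1.19, 1.12, 1.35, 1.12 and 1.14 in retina, against 0.199, 0.297, 0.224, 0.261 and 0.281 in cortex. At site 2 it read 1.18, 1.04, 1.28, 1.2 and 1.2 in retina, against 0.438, 0.362, 0.481, 0.417 and 0.346 in cortex. The tissues were separate at both sites. All 5 cortex arrays of site 2 lay above all 5 of the first site, as in 13.2% of all probes. The log2 difference by limma was 2.24 (SE 0.11, adjusted p = 1.4e-12), or 4.74-fold, at the first site and 1.54 (SE 0.11, adjusted p = 4.3e-10), or 2.9-fold, at site 2. Prox1 is also used by bipolar cells, Müller glia and the lens. Of 3 measured among 6 bipolar cell markers Pcp2 and Gng13 had a higher call in retina at each site, and the 3 summed to 52.2 to 61.7 in retina against 2.99 to 3.75 in cortex at the first site, and to 59.7 to 69.5 in retina against 2.26 to 3.09 in cortex at site 2. Of 6 lens markers 2 were measured and 1, Cryba4, was called higher at each site, with sums of 1.47 to 1.79 in retina against 0.224 to 0.312 in cortex at the first site, and 1.57 to 1.86 in retina against 0.278 to 2.1 in cortex at site 2. The part of these cells in the Prox1 difference was not tested.

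Tfap2b and Tfap2a encode paralogous AP-2 transcription factors that act together in amacrine and horizontal cell development in the mouse, and they differed in call, a difference that was not itself tested. Tfap2b read 2.51, 2.24, 2.08, 1.96 and 1.97 in retina at the first site, against 0.629, 0.759, 0.654, 0.685 and 0.806 in cortex. At site 2 Tfap2b read 2.78, 2.81, 2.88, 2.61 and 2.82 in retina, against 1.02, 1.15, 1.2, 1.16 and 0.74 in cortex. Both sites separated the tissues for Tfap2b, with log2 differences by limma of 1.61 (SE 0.11, adjusted p = 3.5e-10), or 3.05-fold, at the first site and 1.42 (SE 0.11, adjusted p = 2.2e-09), or 2.68-fold, at site 2. Tfap2a read 2.01, 1.76, 1.35, 1.51 and 1.54 in retina at the first site, against 1.65, 1.77, 1.61, 1.74 and 1.86 in cortex. At site 2 Tfap2a read 1.43, 1.8, 1.61, 1.73 and 1.59 in retina, against 2.21, 2.36, 2.68, 2.45 and 1.77 in cortex. Retina and cortex overlapped for Tfap2a at both sites. Its log2 difference was -0.09 (95% interval -0.32 to 0.15, limma adjusted p = 0.52) at the first site and -0.48 (-0.71 to -0.24, adjusted p = 0.0011) at site 2, which did not reach 2-fold. Without cortex replicate 5 of site 2 the difference there was -0.57, with every retina array below every cortex array.

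The promoters of both AP-2 genes are shown because the paralogs differed in call. That of Tfap2b lies at chr1:19211804-19212103 on the plus strand, and the first of 2 for Tfap2a at chr13:40734871-40735170 on the minus strand (RefSeq, GRCm38.p6).
Tfap2b: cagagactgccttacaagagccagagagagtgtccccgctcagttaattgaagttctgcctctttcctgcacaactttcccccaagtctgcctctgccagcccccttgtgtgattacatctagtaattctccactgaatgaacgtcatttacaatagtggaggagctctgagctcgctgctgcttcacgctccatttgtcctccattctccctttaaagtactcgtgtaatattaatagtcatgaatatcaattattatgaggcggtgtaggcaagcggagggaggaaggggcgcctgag
Tfap2a: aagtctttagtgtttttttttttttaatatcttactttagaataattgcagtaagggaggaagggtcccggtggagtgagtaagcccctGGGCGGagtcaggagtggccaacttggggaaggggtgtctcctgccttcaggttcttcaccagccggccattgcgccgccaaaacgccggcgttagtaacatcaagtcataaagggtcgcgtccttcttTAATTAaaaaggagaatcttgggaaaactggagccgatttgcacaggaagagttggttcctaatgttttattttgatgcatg
The capitals in Tfap2a mark a GC box, GGGCGG, at position -161 and TAATTA, a core of homeodomain binding, at -32. The Tfap2b window held none of the 5 motifs searched on both strands, which were the cyclic AMP response element TGACGTCA, the GC box GGGCGG, the TATA box TATAAA, the homeodomain core TAATTA and the AP-2 core GCCNNNGGC. Over all windows TAATTA occurred in 5.29% and TATAAA in 13.6%. No 2 matches overlapped in the 4 windows shown. Of the 10 genes 9 had a promoter in the RefSeq table and Calb2 was without an entry.

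AP-2 genes are also expressed in skin, neural crest and meninges. Meningeal markers, with 7 of 8 measured and all 7 called lower in retina at each site, summed to 0.758 to 0.843 in retina against 5.92 to 6.69 in cortex at the first site. At site 2 they summed to 0.824 to 1.06 in retina, over 4 arrays, and 6.71 to 16.3 in cortex. Their part in the cortex level of Tfap2a and Tfap2b was not tested. Tfap2c, a further paralog picked out after its values were seen, was called higher in retina by 1.72 and 2.00 on the log2 scale.

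Lhx1 encodes the LIM homeodomain factor that guides horizontal cells to their layer. Its intensity ran from 0.731 to 1.02 in retina against 0.553 to 0.65 in cortex at the first site, and from 0.674 to 0.829 in retina against 0.517 to 0.7 in cortex at site 2. The tissues were separate at the first site and overlapped at site 2. The log2 difference was 0.47 (95% interval 0.26 to 0.69, limma adjusted p = 0.00057) at the first site and 0.25 (0.04 to 0.47, adjusted p = 0.041) at site 2, so it passed the p threshold but not the 2-fold limit. Without cortex replicate 5 the site 2 difference was 0.19 (adjusted p = 0.11).

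Of 29 other transcription factors of amacrine and horizontal cell development 18 were measured. At the first site 7 were called higher and 5 lower, and at site 2 8 were higher and 4 lower, with medians of 0.32 and 0.50. Neurod4, Pax6 and Neurod1, which act in amacrine genesis in the mouse, were higher in retina, Neurod4 at 85.1-fold and 97.2-fold, Pax6 at 9.25-fold and 10.3-fold and Neurod1 at 8.67-fold and 8.72-fold. Neurod6, which marks a small amacrine subclass in retina and is abundant in cortical projection neurons, was 71.1-fold and 77.2-fold lower in retina. Neurod2, a related factor of cortical projection neurons, was 5.62-fold and 6.85-fold lower, and the LIM homeodomain gene Lhx9 2.46-fold and 2.38-fold lower. Lhx2, another LIM homeodomain gene, was called lower at the first site (-1.01) and lay just short of 2-fold at site 2 (-0.97). Nr4a2, an orphan nuclear receptor, lay at the 2-fold limit at the first site and was called lower at both. Ebf2 and Satb1 had the smallest differences. Leaving out retina replicate 1 of the first site took away the calls of Lhx2 and Nr4a2 there and left 3 called lower.

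Of 11 listed neuropeptides of amacrine cells 9 were measured, and 1 was called higher and 4 lower at each site, with medians of -0.53 and -0.36. Vip was 7.8-fold and 8.01-fold higher in retina. Its cortex mean at site 2, 0.179, lay below the 25th percentile of intensities, and a floor there gave 7.14-fold. Sst was 13.5-fold and 15.1-fold lower, Npy 3.76-fold and 4.35-fold lower, Adcyap1 4.84-fold and 3.47-fold lower, and Cck 2.8-fold and 2.96-fold lower. Adcyap1 averaged 0.138 and 0.187 in retina, below the 25th percentile, and with a floor there it was 3.41-fold and 3.22-fold lower. Sst and Npy are also markers of cortical interneurons. Tac1 and Penk had the smallest differences. Of 10 other amacrine and horizontal cell genes 7 were measured, and 3 were called higher and 3 lower at each site, with medians of 0.72 and 0.52. The higher ones were Calb1, the calbindin of horizontal cells, which is also in the EF-hand list, Gjd2, the connexin of AII amacrine cells, and Nefl, a neurofilament. Calb1 was 2.8-fold and 2.94-fold higher and Gjd2 6.89-fold and 4.05-fold. Gjd2 averaged 0.135 in cortex at the first site, below the 25th percentile, and a floor there gave 4.77-fold. The lower ones were Stx1a, a presynaptic membrane protein (-3.20 and -1.93), Dab1, an adaptor of reelin signalling (-1.86 and -1.58), and Gja10, the connexin of mouse horizontal cells (-1.20 and -1.57). Stx1a was at -2.89 at site 2 without retina replicate 3. Gja10 averaged 0.236 and 0.262 in retina, not far above the 25th percentile, and had an SD of 1.23 in log2 intensity in cortex at site 2. Nefm, another neurofilament, was not called.

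**Figure D3:**
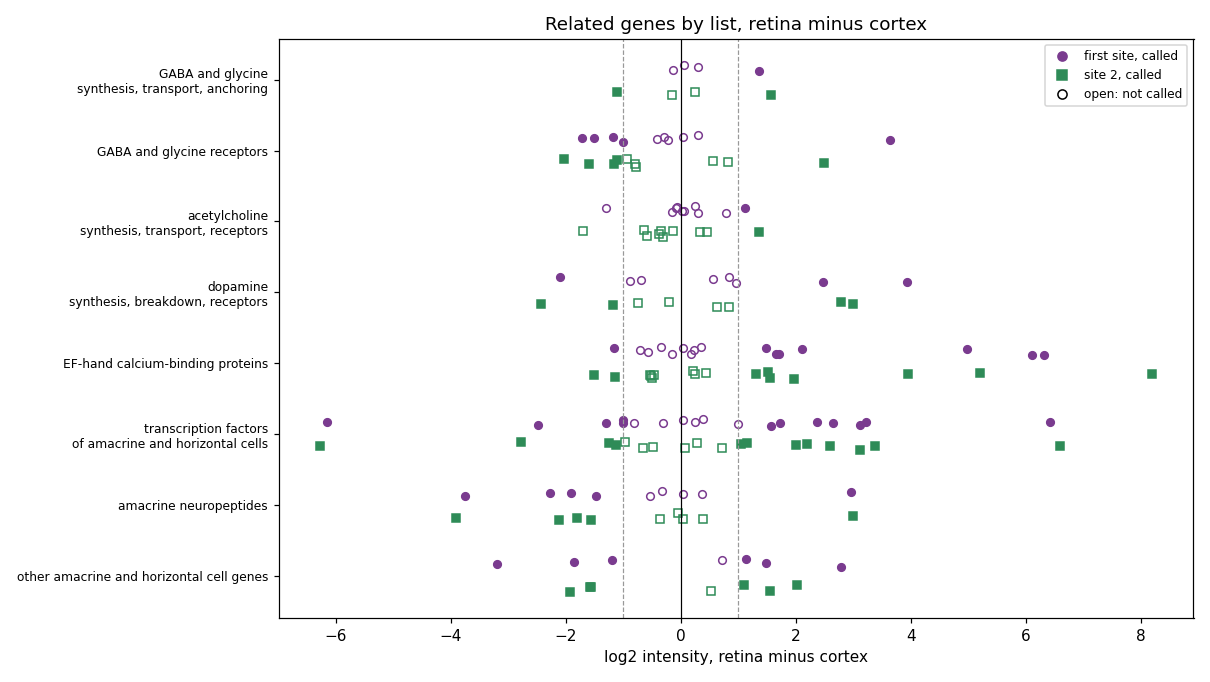
Log2 difference, retina minus cortex, of the measured genes in each list around the 10 genes, for both sites. Each point is a gene, filled where it was called and open where not, and dashed lines mark the 2-fold limits. The EF-hand list reaches 8.19 with Guca1a at site 2, and the transcription factor list spans Neurod4 (6.41 and 6.60) to Neurod6 (-6.15 and -6.27).

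The second comparison asks whether the retina and cortex difference itself changed between sites. By the rule of adjusted p and 2-fold, limma called 0 of the 10 genes for first site minus site 2, where 0.725% of all probes were called, 0.455% as higher and 0.271% as lower. At an unadjusted p below 0.05 limma gave 2 genes higher and 1 lower, again with no share over all probes to set beside them. Prox1 alone had an adjusted p below 0.05, with a difference larger at the first site by 0.71 on the log2 scale (SE 0.16, 95% interval 0.38 to 1.04, adjusted p = 0.017). Under quantile normalization Prox1 gave 0.48 (adjusted p = 0.074), and Calb2 passed the p threshold instead with a difference smaller at the first site (-0.48, adjusted p = 0.0064), against -0.30 (adjusted p = 0.081) as deposited. With a floor at the 25th percentile Calb2 (-0.30, adjusted p = 0.028) and Slc18a3 (-0.39, adjusted p = 0.0019) passed it beside Prox1. Without cortex replicate 5 of site 2, Prox1 gave 0.76 (adjusted p = 0.0071) and Tfap2a 0.48 (adjusted p = 0.04). Leaving it out moved Slc6a9 from 1.02 to 0.39, Pvalb from 0.48 to -0.03 and Th from 0.25 to 0.0. None of these had an adjusted p below 0.05 either way.

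The same pool could also be compared directly between sites. In retina 0 of the 10 genes were called by limma, against 6.24% of all probes, 1.45% as higher and 4.79% as lower. An unadjusted p below 0.05 by limma gave 1 higher and 2 lower at the first site, with no share over all probes. Calb2 came closest, 1.82-fold higher at the first site (log2 0.86, adjusted p = 4.3e-08), and no array of the first site overlapped those of site 2. Of the 10 genes, 3 had every retina array of the first site above those of site 2, as did 22.3% of all probes. Another 2 had every array below, as did 16.8% of all probes. Tfap2b was lower at the first site in retina (-0.38, adjusted p = 0.012). In cortex Calb2 was called, 2.24-fold higher at the first site (1.16, adjusted p = 8.8e-10), where 1.92% of all probes were called higher and 5.29% lower. Prox1 (-0.70, adjusted p = 5.4e-05), Tfap2b (-0.56, adjusted p = 0.00061) and Tfap2a (-0.40, adjusted p = 0.007) were below site 2 in cortex, and Slc32a1 (0.58, adjusted p = 0.0075) was above, each short of 2-fold. Pvalb was at 0.05 (limma adjusted p = 0.92) with all arrays. Without cortex replicate 5 of site 2 it was at 0.56 (adjusted p = 3.6e-05), and Slc18a3 at -0.42 (adjusted p = 0.026), both short of 2-fold. Slc6a9 then moved from -0.43 to 0.2 and Th from -0.33 to -0.08, with adjusted p above 0.05. The Calb2 difference in cortex ran from 1.08 to 1.18 under the other settings. Over all probes the split of site differences moved under quantile normalization. In cortex 50.7% of the probes called between sites were then higher at the first site, against 26.6% as deposited, and in retina 36.9% against 23.3%. Median centring left these shares at 29.1% in cortex and 22.2% in retina. For the probes called on the difference between sites of the tissue difference, the share was 51.3% under quantile normalization and 55.1% under median centring, against 62.7%.

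**Figure D4:**
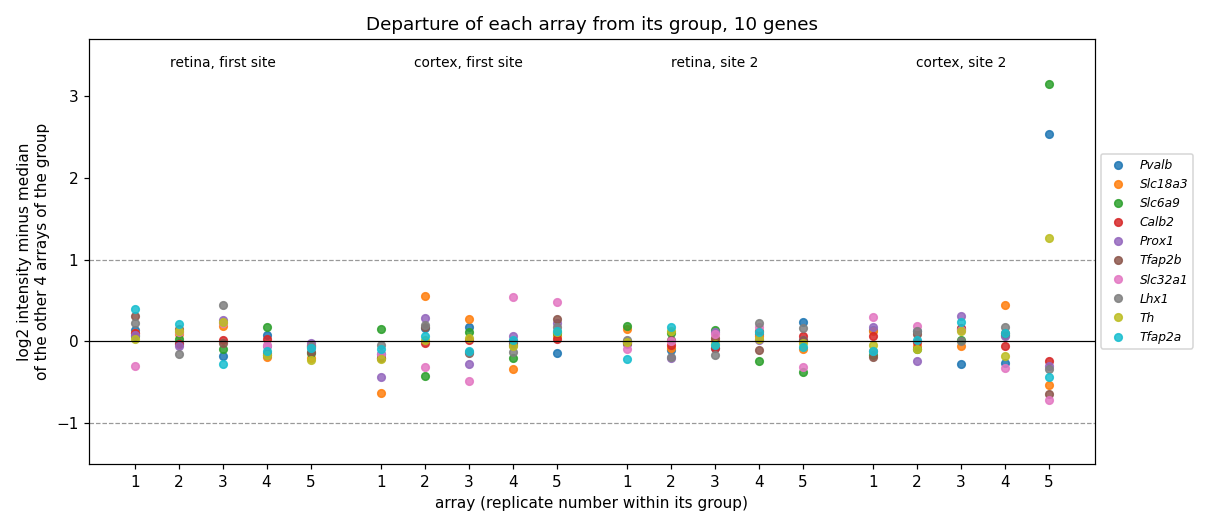
Departure of each of the 20 arrays from the median of the other 4 arrays of its group, in log2, for the 10 genes. Cortex replicate 5 of site 2 lies far above 0 for Pvalb, Slc6a9 and Th, and the remaining points lie within the dashed 2-fold lines.

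The spread between arrays was lower for these genes than for all probes in 3 of the 4 groups and higher in cortex at site 2. That exception includes cortex replicate 5. On the other 4 cortex arrays of site 2, the SD of log2 intensity ran from 0.08 to 0.21 over the 10 genes. The median SD of log2 intensity over the 10 genes was 0.14 in retina against 0.13 in cortex at the first site, and 0.11 in retina against 0.31 in cortex at site 2. Over all tested probes the medians were 0.16 in retina against 0.17 in cortex at the first site, and 0.16 in retina against 0.23 in cortex at site 2. Each gene was also set beside 9074 other named genes by the root mean square distance between their 4 group means on the log2 scale, each centred on its own mean. The nearest gene was Cd59a for Pvalb (0.0807), Znrd1as for Calb2 (0.0418), Slc16a3 for Slc18a3 (0.0438) and Alox12 for Slc6a9 (0.0912). It was Map4 for Slc32a1 (0.0385), Dhx15 for Th (0.00963), Gna14 for Prox1 (0.0679) and Nr6a1 for Tfap2b (0.059). For Tfap2a it was Casp8ap2 (0.0126) and for Lhx1 Yipf5 (0.0157). These distances describe 4 group means. The means of all 10 genes include cortex replicate 5 of site 2, which departed most for Pvalb, Slc6a9 and Th.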

How the data were processed

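Total RNA of adult retina and postnatal day 1 cortex was measured on 20 CodeLink arrays, labelled with biotin by the CodeLink Expression Assay, per the labels. The values deposited are intensities on a linear scale, 1 for each probe on each array. The scanner software, background correction, scaling and filters were not given in the sources used here. Among the deposited intensities 143 were at or below 0 and array medians ran from 0.927 to 0.963. Of 10500 probes, 9378 had 1 gene symbol in the platform annotation, 8 several and 1114 none. Entrez identifiers of 9323 probes were found in RefSeq (GRCm38.p6), used for names and promoter sequence.

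Intensities were taken to log2, with blank (2080) and non-positive values missing. A probe was tested with a value on at least 3 of 5 arrays in each group, which kept 10339 and left out 161. One limma model (3.58.1, R 4.3.3) with a mean per group gave 5 contrasts, with Benjamini-Hochberg adjustment over all probes. A call needed an adjusted p below 0.05 and a 2-fold difference. The number of arrays, 5 per group, limits the precision. The code was tested on simulated data. Alternatives were a floor at the 5th or the 25th percentile of intensities, quantile normalization, median centring, no filter on missing values, brighter probes alone, eBayes with an intensity trend and robust estimation, a replicate block, the 2 groups compared fitted alone, the mean of both sites, and leaving out each array.

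The 10 genes and all lists were chosen with earlier results of these data known. From each list the text names up to 4 genes with the largest mean absolute difference among those called at both sites in 1 direction, up to 2 with the smallest, and every gene of a count of 5 or fewer. A gene with several probes was stood for by its brightest probe.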

Additional observations from a re-analysis of the deposited data

Results flagged for a closer look

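Of 40 sets of 5 arrays (10 genes in 4 groups), 4 held an array whose gap to its neighbour took up more of the group's range than Dixon's 95% critical value allows. Chance alone marks about 1 set in 20. The highest cortex array of site 2, replicate 5 in each case, stood apart for Pvalb at 2.19, for Slc6a9 at 2.66 and for Th at 1.94, against at most 0.415, 0.318 and 0.887 on the other 4 arrays. The lowest cortex array of the first site stood apart for Calb2 at 6.29, with the others between 7.15 and 7.31. The retina and cortex difference of Prox1 differed between the sites, by 0.71 on the log2 scale (limma interaction, adjusted p = 0.017), with every retina array above every cortex array at both. Under quantile normalization it was 0.48 (adjusted p = 0.074).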

How the results depend on the processing

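The 10 genes had 7 calls higher and 0 lower at each site under the 29 alternatives that give a count for each site, 20 of which left out 1 array. The smallest difference, that of Th at site 2 (-0.01), took the other sign under quantile normalization (0.02), median centring (0.01) and without cortex replicate 5 (0.24), and was not called in any of these. Counts over all probes moved more. Probes called lower at the first site than at site 2 numbered 547 in cortex, against 214 with a floor at the 25th percentile, 251 with quantile normalization and 255 among brighter probes. In retina they numbered 495, against 183, 298 and 234 under the same 3 settings. Probes whose tissue difference was called lower at the first site numbered 28, against 16 with that floor and 18 among brighter probes. Those called higher numbered 47, and 33 to 91 when 1 array was left out, the highest without cortex replicate 5 of site 2. Same-numbered arrays did not vary together (r from -0.107 to 0.0773, 0 of 5 pairs over 0.1 in any pair of groups), so the numbers were not taken to pair samples. With a replicate block the 10 genes again gave 7 calls higher at each site, with 1230 probes called higher and 1343 lower at the first site and 1143 and 1391 at site 2, and Prox1 had its difference between sites at an adjusted p of 0.044, while quantile normalization gave 0.48 with an adjusted p of 0.074. Dim values limit the fold changes of Slc18a3 and of the related genes Cabp2, Cabp1, Ddc, Gjd2, Ncs1, Adcyap1, Vip and Neurod4, each of which averaged below the 25th percentile in 1 tissue at 1 site or both. Abat, Chrna4, Chrna7 and Drd3 averaged below it in both tissues at both sites, and Chrm1 in every group but cortex at site 2. Neither a difference nor a like level can be read safely from values that dim. Guca1a averaged below that percentile in cortex at site 2 once replicate 5 was left out. The causes of these shifts were not tested.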

Other observations

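Further cell types were covered by marker lists. Both measured markers of pigment epithelium and melanocytes, 2 of 5 listed (Rpe65 and Dct), had a higher call in retina at both sites by limma, with summed intensities of 6.59 to 8.1 in retina, over 4 arrays, and 0.373 to 0.427 in cortex at the first site. Of 4 measured pituitary markers, 2 (Gh and Cga) were called lower in retina at each site and 0 higher, also at an unadjusted p below 0.05, with sums of 0.849 to 0.981 in retina against 12.2 to 14.2 in cortex at the first site. All 3 measured markers of proliferating cells, of 4 listed (Mki67, Top2a and Pbk), were called lower in retina at each site, with sums of 0.133 to 0.22 in retina against 6.98 to 7.55 in cortex at the first site.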
